A study of Mus musculus with 6 samples.

Results

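The 10 genes described here encode integrin chains of CD4 T cells, namely *Itgae*, *Itgb7*, *Itga4*, *Itgb1*, *Itgal*, *Itgb2*, *Itgav*, *Itgb3*, *Itgb8* and *Itga6*. They were chosen by name, as chains used for general adhesion, for homing to the gut and for activating TGF-β, and each matched 1 of the 56748 genes listed in the deposited table. The table comes from an RNA-seq experiment on primary WT CD4 T cells of C57BL/6 J mice aged 6 to 10 weeks, in which naïve cells were taken by negative selection and kept for 3 days with antisense oligonucleotides (ASOs), short synthetic strands that pair with a matching RNA. Of 6 libraries, 3 are labelled scrambled ASO and 3 *Pgam* ASO, at 10 μM in either case, and the experiment asks what lowering phosphoglycerate mutase does to cells that are becoming Tregs. Every culture received the same Treg polarizing mix: plate-bound anti-CD3, soluble anti-CD28, murine IL-2 at 10 ng/mL, human TGF-β at 1 ng/mL and blocking antibodies to IFNγ and IL-4. The cells were not sorted before RNA was made, so a library averages over all cells of its culture. The study calls the replicates biological, but neither the labels nor the methods say whether they come from separate animals, pooled animals or separate cultures of the same cells, so p-values measure the spread between these libraries only.

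Integrins are pairs of an α and a β chain that span the membrane and hold a cell to matrix or to a neighbouring cell. The α4 chain pairs with β7 to bind MAdCAM-1 on vessels of the gut, or with β1 to bind VCAM-1 and fibronectin, while αE with β7 (CD103) holds T cells to E-cadherin on epithelium and αL with β2 (LFA-1) binds ICAMs on other leukocytes and on vessels. The αv chain with β8 releases TGF-β from its latent complex, a step that Tregs are known to use, and αv with β3 binds vitronectin and osteopontin.

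Sequencing depth was close across libraries. Estimated counts summed to 17588755, 18032805 and 16231127 for scrambled ASO (replicates 1, 2 and 3) and to 16589933, 15860476 and 16803881 for *Pgam* ASO, and all values per library below follow that order. Expression is given as TMM-normalized CPM, fold changes compare *Pgam* ASO with scrambled ASO, and a gene is called when its edgeR quasi-likelihood p, adjusted by Benjamini-Hochberg over all 14936 tested genes, is under 0.05. The ASO targets were looked at first. *Pgam1* had 10655, 8847 and 11414 counts against 10601, 10299 and 11949, or 0.18 as log2 fold change (SE 0.13, edgeR adjusted p = 0.331). *Pgam2* had 93, 125 and 46 counts against 48, 42 and 44, with -0.84 (SE 0.31, edgeR adjusted p = 0.0854). With scrambled ASO replicate 3 left out *Pgam2* was called (-1.11, edgeR adjusted p = 0.0144), as it was with no filter on low counts (0.0292), and with scrambled ASO replicate 2 left out it had -0.56. *Pgam1* was called in no setting and had 0.047 and 0.33 without scrambled ASO replicates 2 and 3. As neither transcript passed the threshold with all 6 libraries in the main fit, the groups are named by their labels throughout. On the first principal component of the 500 most variable genes, which held 64.8% of the variance, scrambled ASO replicates scored -21.9, -32.4 and -14.3 and *Pgam* ASO replicates 34.4, 23.4 and 10.8. Replicate 3 of each label therefore lay closest to the other label.

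Of the 10 integrin chains, 3 were lower in the libraries labelled *Pgam* ASO and 0 were higher, 9 had a fold change estimate below 0, and the median log2 fold change was -0.62. The called chains are *Itga4*, *Itgb3* and *Itgb8*, while *Itgb7*, *Itgae* and *Itga6* had estimates from -0.76 to -0.52 that missed the threshold and *Itgb1*, *Itgal*, *Itgb2* and *Itgav* had estimates from -0.051 to 0.15. Across all tested genes, 17.2% were called, 9.15% as lower and 8.03% as higher, and the median log2 fold change was -0.0061. The CPM of the groups did not overlap for 6 of the 10 chains, against 39.5% of tested genes. At an unadjusted p under 0.05, edgeR had 6 of the 10 (34.9% of tested genes), and at the adjusted threshold DESeq2 called 5 (21.5%) and limma-voom 4 (16.9%).

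**Figure D1:**
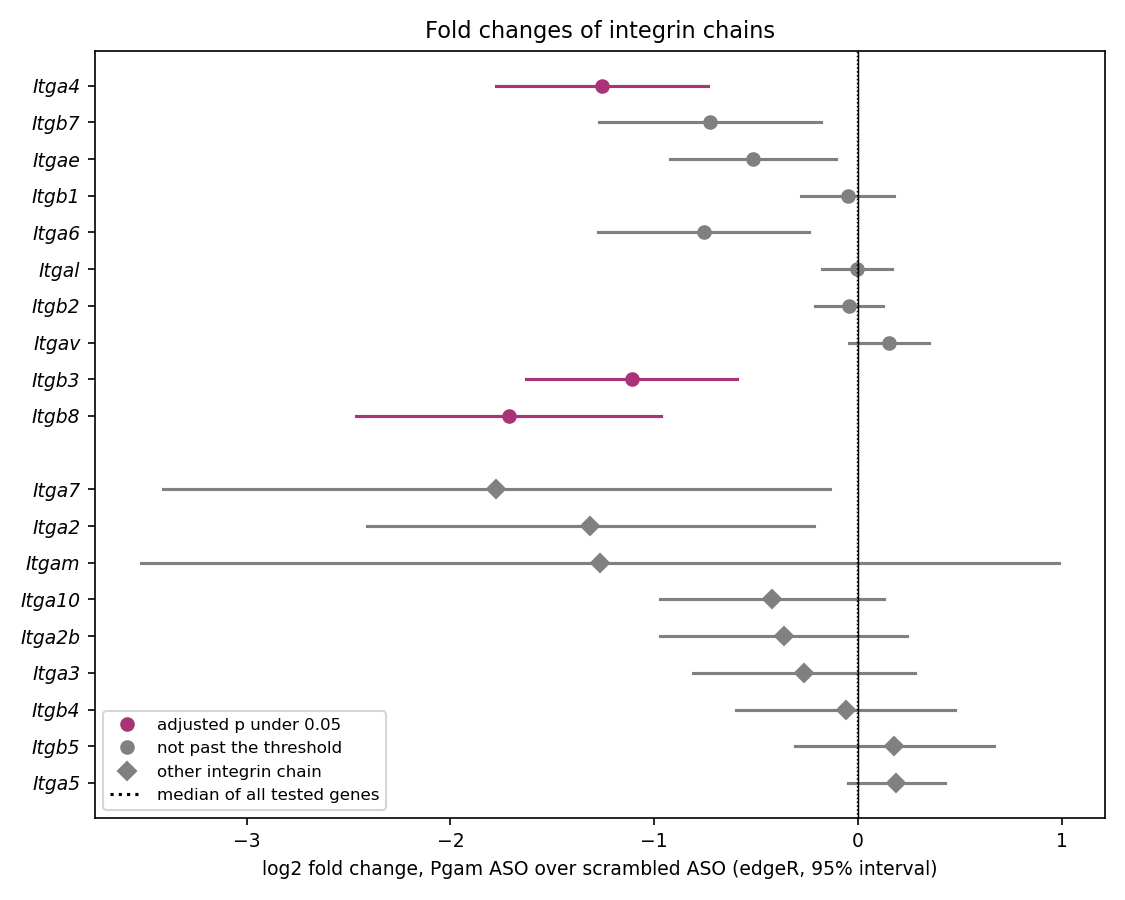
Log2 fold change of *Pgam* ASO over scrambled ASO libraries with its 95% interval (edgeR) on the horizontal axis, for the 10 integrin chains (circles) and 9 other tested integrin chains (diamonds), with called genes in purple and the median of all tested genes as a dotted line. Intervals of *Itga4*, *Itgb3* and *Itgb8* lie farthest below 0 among the 10, and those of *Itgal*, *Itgb2*, *Itgb1* and *Itgav* span 0.

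To compare chains with each other, counts were divided by the length of each gene's merged exons and scaled to the same sum in every library (TPM). In the libraries labelled scrambled ASO the highest level on this per-length scale was that of *Itgb2*, 538 ± 32.9 TPM (SD, n = 3), followed by *Itgb7* at 427 ± 102, *Itgal* at 371 ± 20.7 and *Itgb1* at 253 ± 26.1 TPM. Then came *Itgb3* at 61.7 ± 22.3, *Itga6* at 41.5 ± 5.82, *Itga4* at 41.4 ± 10.6 and *Itgav* at 40.9 ± 2.30 TPM, and far lower *Itgae* at 8.77 ± 1.79 and *Itgb8* at 0.907 ± 0.194 TPM. Neighbours in this order did not differ beyond their SDs from *Itgb2* to *Itgal* and from *Itgb3* to *Itgav*. In the libraries labelled *Pgam* ASO, *Itgb2* at 506 ± 16.5 and *Itgal* at 359 ± 11.9 TPM headed the per-length order, with *Itgb7* at 251 ± 79.3 and *Itgb1* at 238 ± 4.86 TPM within their SDs of each other. *Itgav*, at 44.2 ± 1.60 TPM, was there above *Itgb3* (27.6 ± 2.26), *Itga6* (23.8 ± 8.05) and *Itga4* (16.8 ± 4.72), while *Itgae* (5.94 ± 0.971) and *Itgb8* (0.267 ± 0.0736) remained last; neighbours from *Itgb3* to *Itga4* did not differ beyond their SDs. The order depends on the length used: with the longest transcript *Itga6* was at 65.6 and 37.5 TPM in the scrambled ASO and *Pgam* ASO groups, above *Itgb3* at 47.5 and 21.1 TPM, and *Itgal* at 352 TPM was above *Itgb7* at 333 TPM in the scrambled ASO group.

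**Figure D2:**
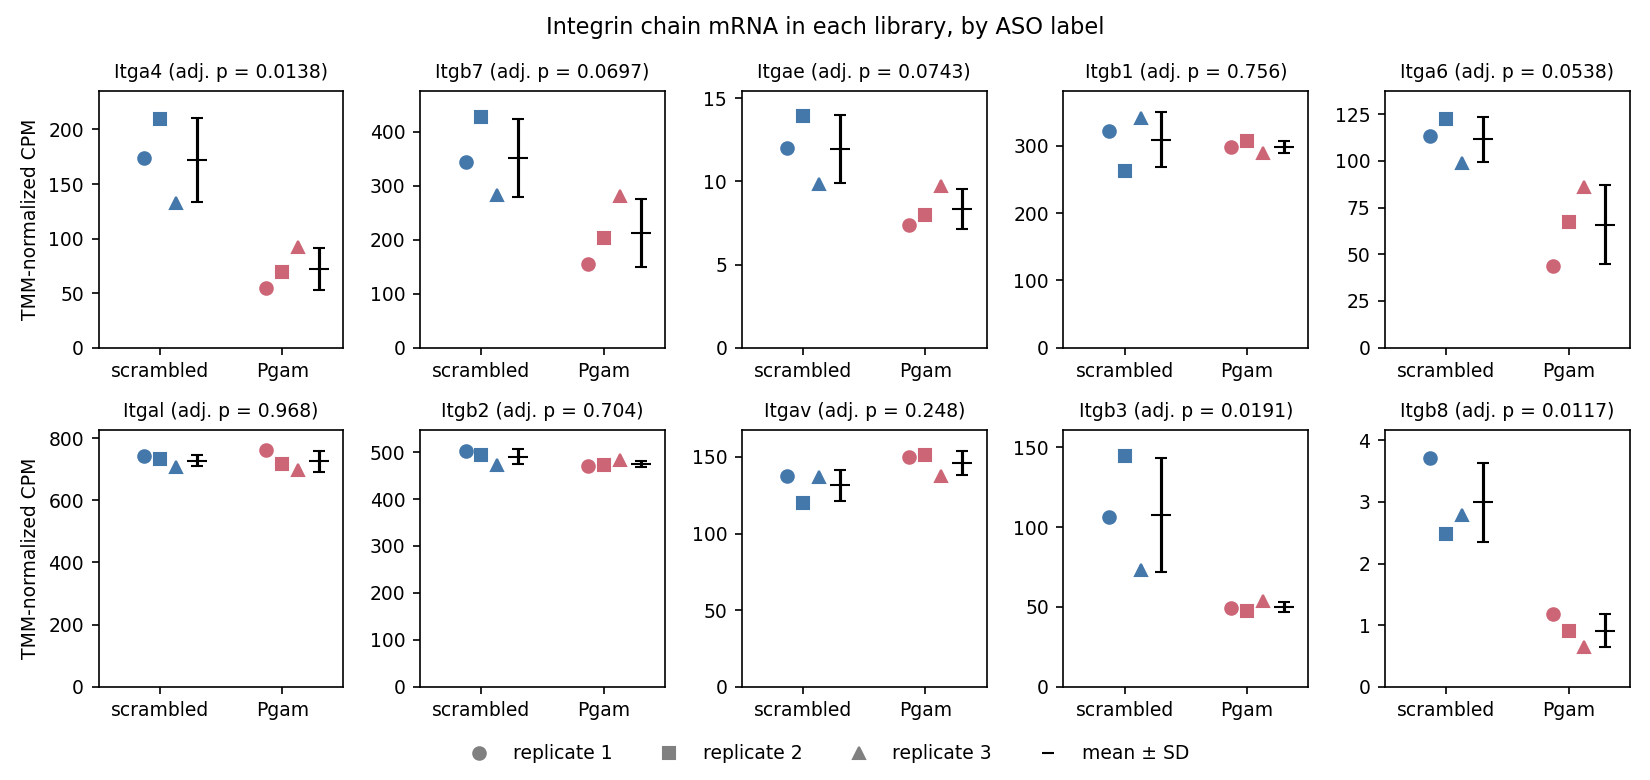
TMM-normalized CPM of each integrin chain in every library, 1 panel per chain with its edgeR adjusted p; marker shapes give the replicate number and bars the mean ± SD (n = 3). Axes start at 0, so *Itga4*, *Itgb3* and *Itgb8* are seen to be lower in every library labelled *Pgam* ASO, and the *Itgal* and *Itgb2* points to overlap.

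*Itga4* (ENSMUSG00000027009) encodes the α4 chain and lies at chr2:79255426-79333123 on the plus strand of GRCm38 in GENCODE M21. It had 174, 209.5 and 133 CPM in the libraries labelled scrambled ASO and 54.3, 69.8 and 91.9 CPM in those labelled *Pgam* ASO. The lowest scrambled ASO library, replicate 3, was above the highest *Pgam* ASO library, which was also replicate 3. From 172 ± 38.4 the mean fell to 72.0 ± 18.9 CPM (SD, n = 3), with -1.26 as log2 fold change (SE 0.22, edgeR adjusted p = 0.0138), which is 0.419 times the scrambled ASO level. In bulk samples such as these, fewer cells of a type and less RNA per cell cannot be told apart. The call was lost with scrambled ASO replicate 1 (edgeR adjusted p = 0.0503), scrambled ASO replicate 2 (0.0537) or *Pgam* ASO replicate 2 (0.0672) left out, with log2 fold changes from -1.46 to -1.09 over the 6 libraries left out in turn. Of the 31-base stretches in *Itga4* transcripts, 8.85% also occur elsewhere, chiefly in *Cerkl*, which runs on the opposite strand and had 143 counts over all libraries, and whether the counting used strand is not given in the sources used here.

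RefSeq (GRCm38.p6) holds promoter entries for 5 of the 10 chains, *Itgb7*, *Itga4*, *Itgb1*, *Itgav* and *Itgb8*. The 250 bases before the start that RefSeq uses are shown for *Itga4* and *Itgb8*, which were called. They are also shown for *Itgb1* and *Itgav*, which pair with others described here and, like *Itgb7*, were not called. They lie at chr2:79255176-79255425, chr8:128685404-128685653 and chr2:83724147-83724396 on the plus strand and, for *Itgb8*, at chr12:119238277-119238526 on the minus strand, which is inside the GENCODE M21 interval of the gene, since the starts differ. Capitals mark, on either strand, the letters TGTGGT (RUNX), GGAAGT (ETS) and GGGCGG (GC box), none of which contains another.
Itga4: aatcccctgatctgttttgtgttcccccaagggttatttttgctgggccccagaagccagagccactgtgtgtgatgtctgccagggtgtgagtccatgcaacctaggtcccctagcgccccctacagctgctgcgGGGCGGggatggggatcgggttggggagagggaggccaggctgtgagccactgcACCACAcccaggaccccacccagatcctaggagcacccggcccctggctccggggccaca
Itgb8: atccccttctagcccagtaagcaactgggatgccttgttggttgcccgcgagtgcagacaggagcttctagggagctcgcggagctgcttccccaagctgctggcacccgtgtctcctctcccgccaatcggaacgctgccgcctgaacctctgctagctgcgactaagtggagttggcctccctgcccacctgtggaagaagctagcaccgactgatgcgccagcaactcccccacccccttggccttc
Itgb1: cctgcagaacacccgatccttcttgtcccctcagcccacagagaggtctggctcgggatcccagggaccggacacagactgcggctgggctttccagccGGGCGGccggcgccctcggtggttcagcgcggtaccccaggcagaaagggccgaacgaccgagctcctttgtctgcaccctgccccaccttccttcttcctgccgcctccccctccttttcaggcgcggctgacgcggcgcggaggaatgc
Itgav: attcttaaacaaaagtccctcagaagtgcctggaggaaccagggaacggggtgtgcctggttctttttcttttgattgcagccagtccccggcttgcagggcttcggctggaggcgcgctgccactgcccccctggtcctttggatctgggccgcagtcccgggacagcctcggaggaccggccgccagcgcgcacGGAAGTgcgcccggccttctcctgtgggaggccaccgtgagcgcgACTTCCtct
The *Itga4* window holds 1 RUNX match, written ACCACA since it is on the other strand, 1 GC box, 6 CpG and 64.0% GC. The *Itgb8* window holds none of the marked letters, with 12 CpG and 62.4% GC. The *Itgb1* window holds 1 GC box, 21 CpG and 68.0% GC, and the *Itgav* window 2 ETS matches, 18 CpG and 64.4% GC. That of *Itgb7*, which is not shown, holds none of the marked letters, with 5 CpG and 56.0% GC. Of 32851 promoter entries of this length, 14.0% hold TGTGGT, 19.7% GGAAGT and 32.7% GGGCGG, with a median of 6 CpG and 52.4% GC. The SMAD letters GTCTAGAC, present in 0.167% of the entries, occur in none of the 4 windows shown, and CAGACA, present in 17.1%, occurs once each in those of *Itga4*, *Itgb8* and *Itgb1*. Neither occurs in that of *Itgb7*. A match is a description of letters and not a binding site.

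*Itgb7* (ENSMUSG00000001281, chr15:102215995-102231944, minus strand) encodes the β7 chain, shared by the gut homing pair with α4 and by CD103. Its values were 344, 427 and 283 CPM in scrambled ASO and 155, 203 and 280.4 CPM in *Pgam* ASO libraries. Replicate 3 of the scrambled ASO group was barely above replicate 3 of the *Pgam* ASO group, and on the per-length scale these 2 changed places and the groups overlapped. Group means were 352 ± 72.4 and 213 ± 63.4 CPM (SD, n = 3) and the estimate -0.73 (95% interval -1.27 to -0.18, edgeR adjusted p = 0.0697), short of the threshold. It was passed in DESeq2 (adjusted p = 0.00293), in edgeR without a filter on low counts (0.045) and in edgeR with *Pgam* ASO replicate 3 left out (log2 fold change -0.97, adjusted p = 0.00864).

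*Itgb1* (ENSMUSG00000025809, chr8:128685654-128733200, plus strand) encodes the β1 chain, the most widely shared β partner. It was measured at 322, 263 and 342 CPM against 298, 307 and 289 CPM. The scrambled ASO libraries spread more widely, and all 3 *Pgam* ASO libraries fell inside their range. The log2 fold change of -0.051 (95% interval -0.28 to 0.18, edgeR adjusted p = 0.756) leaves room for a change of that size in either direction, and with scrambled ASO replicate 3 left out the estimate was 0.029.

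Since β7 and β1 compete for α4, their ratio was taken within each library. The log2 ratio of *Itgb7* to *Itgb1* counts was 0.10, 0.70 and -0.27 in scrambled ASO and -0.95, -0.60 and -0.044 in *Pgam* ASO libraries. The groups overlapped, because *Pgam* ASO replicate 3 was above scrambled ASO replicate 3. The difference of -0.70 gave p = 0.2 in a two-sided exact permutation test, in which 3 libraries against 3 cannot go below 0.1, and it was -0.44 with scrambled ASO replicate 2 left out. Per length, *Itgb7* was 1.73 ± 0.601 times *Itgb1* in scrambled ASO libraries and 1.06 ± 0.340 times in *Pgam* ASO libraries (SD, n = 3).

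*Itgae* (ENSMUSG00000005947, chr11:73090583-73147446, plus strand) encodes αE, the α chain of CD103, which TGF-β is known to induce. It was low in all libraries, with 214, 258 and 159 counts against 119, 124 and 164, or 12.0, 13.9 and 9.85 CPM against 7.39, 7.96 and 9.70 CPM. The 2 groups were separated only by the narrow gap between their replicates 3, and on the per-length scale these overlapped. The log2 fold change was -0.52 (95% interval -0.92 to -0.11, edgeR adjusted p = 0.0743), and the threshold was passed with scrambled ASO replicate 3 (adjusted p = 0.036) or *Pgam* ASO replicate 3 (0.0462) left out in edgeR. *Haspin*, counted 3254 times over the 6 libraries, overlaps *Itgae* on the opposite strand, while only 0.022% of the 31-base stretches in *Itgae* transcripts occur in another gene.

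Both αE and α4 pair with β7, so their balance was taken within each library too. The log2 ratio of *Itgae* to *Itga4* counts was -3.85, -3.91 and -3.75 in scrambled ASO and -2.88, -3.13 and -3.24 in *Pgam* ASO libraries. Every *Pgam* ASO library was above every scrambled ASO library, a difference of 0.75 (two-sided exact permutation p = 0.1, the smallest possible). Per length, *Itgae* was 0.214 ± 0.0119 times *Itga4* and then 0.362 ± 0.0482 times (SD, n = 3), so α4 transcripts were the more abundant of the pair in both groups.

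*Itga6* (ENSMUSG00000027111, chr2:71745616-71858416, plus strand) encodes the α6 chain, which pairs with β1 or β4 and binds laminin. It had 113, 122 and 98.8 CPM in scrambled ASO and 44.0, 67.5 and 86.3 CPM in *Pgam* ASO libraries. All scrambled ASO libraries were above all *Pgam* ASO libraries, of which replicate 1 was the lowest. The log2 fold change was -0.76 (95% interval -1.28 to -0.24) and lay just short of the threshold (edgeR adjusted p = 0.0538). It was past it in DESeq2 (adjusted p = 0.00184), in limma-voom (0.0407), in edgeR with no filter on low counts (7.39e-06) and in edgeR without *Pgam* ASO replicate 1 (0.0464) or 3 (0.007). Of the 31-base stretches in *Itga6*, 6.20% also occur elsewhere, chiefly in *Gm29397*, counted 34 times in all.

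*Itgal* (ENSMUSG00000030830, chr7:127296260-127335138, plus strand) and *Itgb2* (ENSMUSG00000000290, chr10:77530252-77565708, plus strand) encode the chains of LFA-1, which T cells use to hold on to antigen-presenting cells and to vessel walls. *Itgal* had 744, 733 and 707 CPM against 763, 716 and 696 CPM. *Itgb2* had 503, 494 and 473 CPM against 469.9, 473 and 483 CPM. In both genes the groups overlapped and no library stood apart. The log2 fold change was -0.0055 for *Itgal* (95% interval -0.18 to 0.16, edgeR adjusted p = 0.968) and -0.045 for *Itgb2* (95% interval -0.21 to 0.12, edgeR adjusted p = 0.704), the narrowest intervals of the 10 chains. The log2 ratio of *Itgal* to *Itgb2* counts was 0.56, 0.57 and 0.58 in scrambled ASO and 0.70, 0.60 and 0.53 in *Pgam* ASO libraries, a difference of 0.038 (two-sided exact permutation p = 0.7). The scrambled ASO libraries lay close together, inside the range of the *Pgam* ASO libraries. Directions turned with libraries left out: for *Itgal* to 0.0058 without scrambled ASO replicate 1, 0.0037 without *Pgam* ASO replicate 2 and 0.029 without *Pgam* ASO replicate 3, and for the ratio to -0.0069 without *Pgam* ASO replicate 1 (0.078 without replicate 3).

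*Itgav* (ENSMUSG00000027087, chr2:83724397-83806916, plus strand) encodes αv, the partner of β3 and β8. Its values were 138, 119.8 and 137 CPM against 149.7, 151 and 137 CPM. Replicates 1 and 2 of the *Pgam* ASO group were highest, and replicate 3 overlapped with the scrambled ASO group. This was the 1 chain of the 10 with an estimate above 0, 0.15 (95% interval -0.044 to 0.35, edgeR adjusted p = 0.248), and it was 0.088 with scrambled ASO replicate 2 left out. Elsewhere, chiefly in *Gm13684* on the opposite strand (176 counts), 5.63% of its 31-base stretches occur again.

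*Itgb3* (ENSMUSG00000020689, chr11:104608000-104670476, plus strand) encodes β3. It had 106, 144 and 73.0 CPM in scrambled ASO and 49.1, 47.2 and 53.5 CPM in *Pgam* ASO libraries. The *Pgam* ASO libraries were tightly grouped below all scrambled ASO libraries, among which replicate 2 was the highest and replicate 3 the lowest. The estimate was -1.11 (log2, SE 0.22, edgeR adjusted p = 0.0191), which is 0.463 times the scrambled ASO level. The call was lost without scrambled ASO replicate 1 (edgeR adjusted p = 0.0613), *Pgam* ASO replicate 1 (0.0691) or *Pgam* ASO replicate 2 (0.0856), over a range of log2 fold changes from -1.32 to -0.85.

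*Itgb8* (ENSMUSG00000025321, chr12:119158022-119238802, minus strand) encodes β8, the chain that gives αvβ8 its hold on latent TGF-β. It was rare, with 66, 46 and 45 counts in scrambled ASO and 19, 14 and 11 counts in *Pgam* ASO libraries, or 3.71, 2.48 and 2.79 CPM and 1.18, 0.898 and 0.651 CPM. Replicate 1 was the highest of each group and the groups did not overlap. From 3.00 ± 0.640 to 0.910 ± 0.265 CPM (SD, n = 3), its log2 fold change of -1.71 (SE 0.34, edgeR adjusted p = 0.0117), to 0.305 times the scrambled ASO level, was the largest among the 10 chains. The call was lost without scrambled ASO replicate 1 (edgeR adjusted p = 0.0594) or *Pgam* ASO replicate 2 (0.0674), and the log2 fold change ran from -1.94 to -1.51 over the left-out libraries.

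Both β partners were also set against *Itgav* within each library. The log2 ratio of *Itgb8* to *Itgav* counts was -5.21, -5.59 and -5.62 in scrambled ASO and -6.99, -7.40 and -7.72 in *Pgam* ASO libraries. The log2 ratio of *Itgb3* to *Itgav* counts was -0.37, 0.27 and -0.91 and -1.61, -1.68 and -1.36. In both ratios each *Pgam* ASO library was below each scrambled ASO library, with differences of -1.89 and -1.21 (two-sided exact permutation p = 0.1 for each, the smallest possible). Per length, *Itgb3* was 1.52 ± 0.620 times *Itgav* in scrambled ASO and 0.625 ± 0.0751 times in *Pgam* ASO libraries, and *Itgb8* 0.0220 ± 0.00359 and 0.00601 ± 0.00154 times (SD, n = 3). The excess of *Itgb3* in scrambled ASO libraries rests on the length used, since with the longest transcript *Itgb3* was at 47.5 and *Itgav* at 47.0 TPM.

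**Figure D3:**
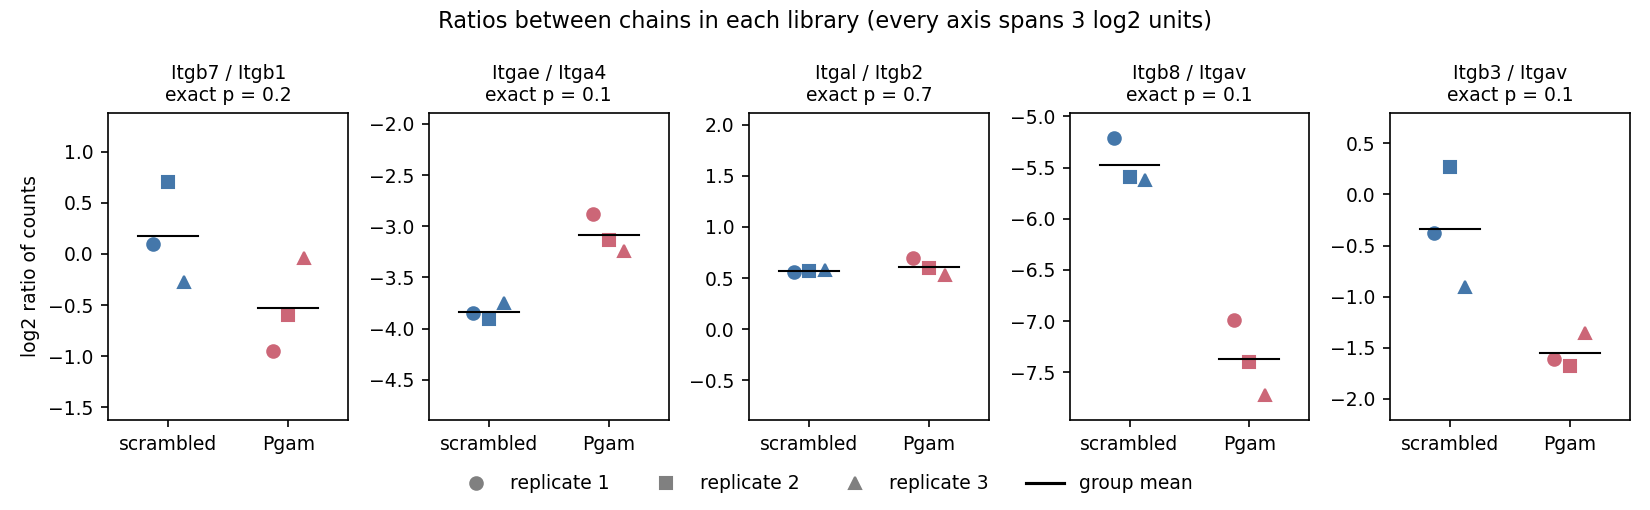
Log2 ratio of counts between chains in each library, for 5 pairs that share a partner or form an integrin; lines are group means, every axis spans 3 log2 units, and p is from the exact permutation test. The groups do not overlap for *Itgae* to *Itga4*, *Itgb8* to *Itgav* and *Itgb3* to *Itgav*.

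The chains also varied within a label. In the order of the first principal component, from scrambled ASO replicates 2, 1 and 3 to *Pgam* ASO replicates 3, 2 and 1, the CPM of *Itgae*, *Itgb7*, *Itga4* and *Itga6* was lower in each library than in the one before. These are 4 of the 10 chains, and 5.21% of tested genes did so. *Itgb3* followed this order within the scrambled ASO group and *Itgb8* in neither group.

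Genes with the most similar profile were sought over the 6 libraries by Pearson r of log2 CPM, among tested genes with a mean log2 CPM of at least 3. Among the nearest to *Itgae* were *2310001H17Rik* (r = 0.998) and *Dtx3* (0.998), and nearest to *Itgb7* were *N4bp2* (0.999), *Add3* (0.997) and *S1pr4* (0.996). Nearest to *Itgb8* were *Twsg1* (0.995), *Dnajb5* (0.994) and *Gpatch8* (0.993). With 6 libraries in 2 groups such values are common, since r was over 0.9 for 1285 genes with *Itgae*, 1216 with *Itgb7* and 229 with *Itgb8*, and they are given as a description.

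Of 16 other integrin chain genes, 9 could be tested and edgeR called 0 of them, against 2 at an unadjusted p under 0.05, 1 called by DESeq2 and 0 by limma-voom. For this list and those below, the share of all tested genes called by edgeR was 17.2%, with 9.15% lower and 8.03% higher. *Itga7*, a laminin-binding α chain and in scrambled ASO libraries per length the most abundant of the 16, had 2365, 2684 and 2153 counts against 151, 533 and 1292. Every *Pgam* ASO library was lower, but they differed widely among themselves, and the log2 fold change was -1.77 (95% interval -3.41 to -0.14, edgeR adjusted p = 0.120). Without *Pgam* ASO replicate 3 it was called (-2.65, edgeR adjusted p = 0.0215). *Itga2*, a collagen-binding α chain, had 54, 98 and 21 counts against 12, 24 and 27 and -1.31 (95% interval -2.41 to -0.22, edgeR adjusted p = 0.0894). It was called in DESeq2 (adjusted p = 0.0472), in edgeR with no filter on low counts (0.00359) and in edgeR without scrambled ASO replicate 3 (0.0164), and had -0.75 without scrambled ASO replicate 2. *Itga3* had -0.26 (edgeR adjusted p = 0.464), with -0.43, -0.097, -0.53, -0.16 and -0.12 when scrambled ASO replicates 2 and 3 and *Pgam* ASO replicates 1, 2 and 3 were left out, and *Itga8*, *Itgad* and *Itgb6* were at 0 in every library.

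Among 13 genes for ligands that integrins bind, 7 were tested, 1 was lower and 0 higher, with a median log2 fold change of -0.055. The lower one was *Spp1*, which encodes osteopontin, a ligand of αvβ3 and α4β1, with 9.62, 5.62 and 11.6 CPM against 3.73, 3.53 and 2.31 CPM, no overlap and -1.49 as log2 fold change (edgeR adjusted p = 0.0131). *Lama5* and *Icam2*, per length the most abundant of these, had 0.24 and -0.12 (edgeR adjusted p = 0.267 and 0.582). Without scrambled ASO replicate 2 these were 0.078 and -0.017, and without replicate 3 of that group 0.41 (called, edgeR adjusted p = 0.0345) and -0.22, while *Icam2* had -0.20, -0.073 and -0.068 without *Pgam* ASO replicates 2, 1 and 3.

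Talin, kindlin and Rap1 proteins switch integrins on from inside the cell. Of 23 genes for these and for proteins that act with them, 21 were tested, 2 were lower and 1 higher, and their median was -0.0046. The lower ones were *Fyb*, an adaptor between the T cell receptor and integrins, with -1.09 (edgeR adjusted p = 0.0499, not called in 4 of 6 fits with a library left out, with library size alone or with no filter on low counts), and *Stk4*, the kinase MST1, with -0.53 (0.0118). The higher one was *Rap1a*, a small GTPase that activates LFA-1, with 0.33 (edgeR adjusted p = 0.0450). With a library left out, *Rap1a* was called in 1 of 6 fits and *Stk4* in 4. *Rap1b* and *Flna*, the most abundant per length, had 0.20 and 0.088 (edgeR adjusted p = 0.137 and 0.466). *Flna* ran from 0.051 to 0.135 with 1 library left out. Of 20 genes that carry integrin signals into the cell, 18 were tested, 3 were lower and 1 higher, with a median of -0.077. The kinases *Src* and *Ptk2b* had -0.96 and -0.64 (edgeR adjusted p = 0.0189 and 0.00534), and *Dock2*, which activates Rac, had -0.45 (0.0182). The adaptor *Nedd9* was higher, with 0.36 (edgeR adjusted p = 0.0434). With a library left out, *Nedd9* was called in 2 of 6 fits, *Src* and *Dock2* in 3 each and *Ptk2b* in 5.

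All 15 genes for membrane partners of integrins were tested, with 4 higher, 2 lower and a median of 0.015. Of all tested genes, 8.03% were higher and 9.15% lower. *Cd9*, a tetraspanin that associates with β1 integrins, had 51.5, 47.7 and 46.3 CPM against 18.1, 15.7 and 19.3 CPM, or -1.45 as log2 fold change (edgeR adjusted p = 2.45e-04), and *Lgals3*, a galectin, had -0.91 (9.45e-04). *Slc3a2*, the CD98 heavy chain that binds β chain tails, was higher, from 101, 86.5 and 111 CPM to 184, 172 and 158 CPM, with 0.78 (edgeR adjusted p = 0.00235). The others that rose were *Lgals1*, *Cd82* and *Cd226*, with log2 fold changes from 0.39 to 0.46.

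**Figure D4:**
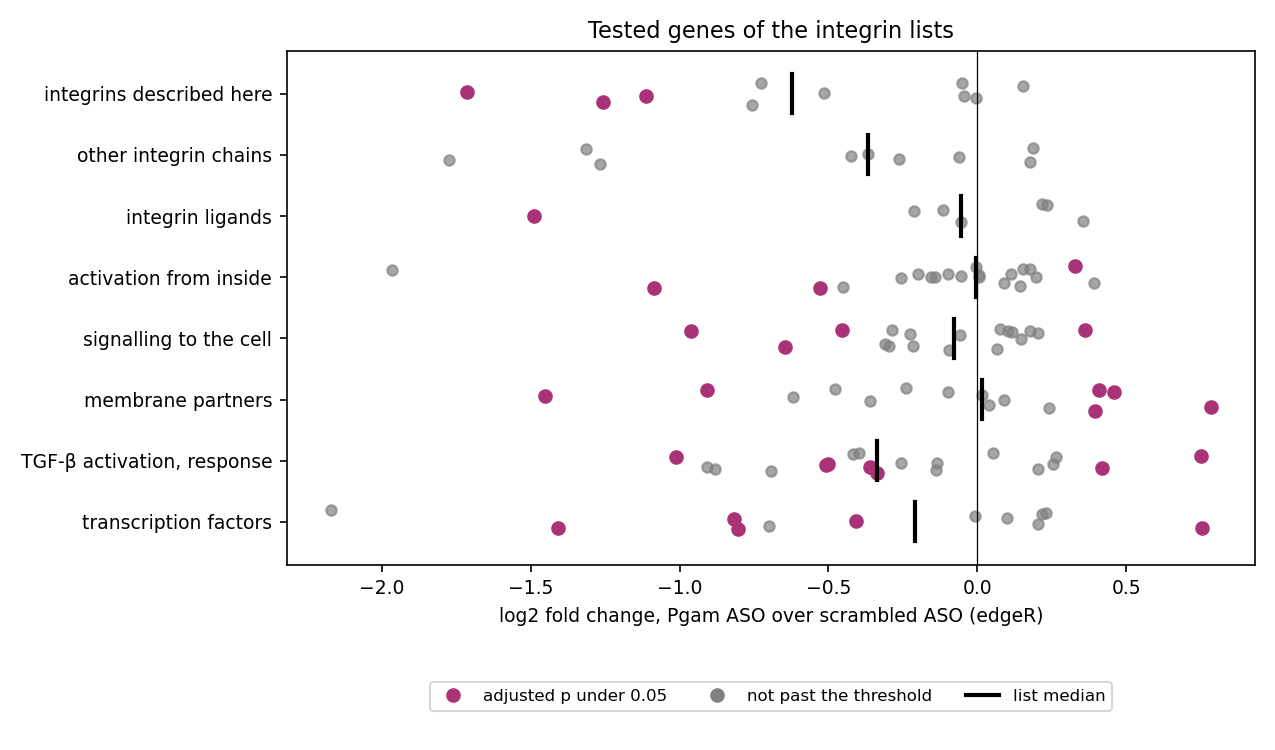
Log2 fold change (edgeR, horizontal axis) of every tested gene in the integrin list and 7 related lists; each point is a gene, purple marks an adjusted p under 0.05, and the bar is the list median. The median was -0.62 for the integrin chains and between -0.37 and 0.015 for the others shown, and it was -0.50 for a list of homing genes that is not drawn.

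Integrins act together with chemokine receptors and other surface proteins when T cells leave the blood. Among homing genes of this kind, *Ccr7* (-1.87, edgeR adjusted p = 9.27e-05), *S1pr1* (-0.84, 0.0483) and *Selplg* (-0.50, 0.0213) were lower, and *Cd44* (0.38, 0.0390) was higher. *S1pr1* ran from -1.03 to -0.55 with 1 library left out and was called in 3 of these 6 fits. *Ccr9*, the gut homing receptor that acts together with α4β7, was near the limit of detection with 14, 17 and 10 counts against 0, 2 and 8, and edgeR gave it an adjusted p of 0.0998. It was called in 1 of 6 fits with a library left out (edgeR adjusted p = 0.0262), where log2 fold changes ran from -3.47 to -1.33. *Gpr15*, which guides Tregs to the colon, had 13, 36 and 20 counts against 18, 6 and 21 (edgeR adjusted p = 0.509).

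Of 21 genes of TGF-β activation and response, 19 were tested, 5 were lower and 2 higher, with a median of -0.34. The receptors *Tgfbr1* and *Tgfbr2* had -0.50 and -0.51 (edgeR adjusted p = 0.00867 and 0.0291), and *Tgif1*, a repressor of SMAD targets, had -1.01 (0.00413). *Smad7* and *Smad4* were the other lower genes, with -0.36 and -0.34. The higher ones were the co-receptor *Tgfbr3* at 0.75 (edgeR adjusted p = 0.00137) and *Nrros*, which tethers latent TGF-β, at 0.42 (0.0219), while the cytokine gene *Tgfb1* had 0.26 (edgeR adjusted p = 0.0885). *Tgfb1* ran from 0.16 to 0.33 with 1 library left out. It was called in 1 of these 6 fits and in 1 of 7 other settings. Of 12 transcription factor genes tied to *Itgae* and the β chains, all 12 were tested, 4 were lower (*Foxp3*, *Eomes*, *Rarg* and *Rara*, from -1.41 to -0.41) and 1 was higher (*Batf*, 0.75), with a median of -0.21.

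Some integrin chains are also carried by other cell types, so their markers were examined in the same libraries. CD4 T cell markers summed to 2806, 3019 and 2617 CPM in scrambled ASO and 2273, 2275 and 2387 CPM in *Pgam* ASO libraries, with *Cd4* the most abundant and 2 of 7 genes lower (*Cd28*, -0.66, and *Cd5*, -0.49). Both CD8 markers were tested, at sums of 11.3, 13.5 and 10.8 against 14.6, 10.9 and 15.7 CPM. *Cd8a* was higher (1.12, edgeR adjusted p = 0.0286). *Cd8b1*, the larger share of the sums, had an estimate in the other direction and was not called (-0.20, edgeR adjusted p = 0.454). Platelet markers, relevant to *Itgb3*, summed to 4.90, 8.59 and 4.71 against 3.91, 4.88 and 5.33 CPM, with *Itga2b* the most abundant, *Gp1bb* and *Gp6* at 0 in every library, and 0 of 2 tested genes called by edgeR, DESeq2 or limma-voom or at an unadjusted p under 0.05.

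Of 6 B cell markers 1 was lower, *Ighm*, with 5685, 8271 and 3481 counts against 1217, 1728 and 2401 (-1.58, edgeR adjusted p = 0.0282). It made up nearly all of the list's 329, 458 and 222 CPM against 85.3, 119.8 and 149.9 CPM, no B cell marker was at 0 in every library, and *Cd79a* had 73, 99 and 39 counts against 25, 24 and 45. Of 8 stromal and endothelial markers 2 were tested and 1 was lower, *Pecam1* (-1.39, edgeR adjusted p = 0.0412), the most abundant of a list that summed to 89.9, 149 and 66.5 against 30.0, 36.6 and 50.3 CPM, while *Cdh5* had 1 count in all. *Pecam1*, like *Ighm*, was called in 2 of 6 fits with a library left out. Of 7 mast cell and basophil markers 2 were tested and 1 was lower, *Kit* (-1.68, edgeR adjusted p = 0.0142), with sums of 6.41, 7.35 and 7.62 against 5.03, 5.52 and 5.74 CPM and *Mcpt4* at 0. The other, *Cpa3*, was per length the most abundant and differed the other way, with 17, 28 and 12 counts against 41, 35 and 36 (1.09, edgeR adjusted p = 0.0526), and DESeq2 and limma-voom called both. The untested *Mcpt8* and *Fcer1a* had 0, 2 and 3 against 16, 11 and 5 and 0, 2 and 0 against 4, 8 and 6 counts. The part of these markers in the integrin result was not tested. Myeloid, dendritic, NK and erythroid markers had 9 tested genes among 29 list entries, with the untested *Itgax* listed for both myeloid and dendritic cells. Of these 9, edgeR, DESeq2 and limma-voom called 0, and 2 had an unadjusted edgeR p under 0.05. The sums were 11.5, 11.2 and 9.60 against 10.9, 8.98 and 10.1 CPM for myeloid cells (*Cd68* most abundant), 9.06, 9.24 and 9.36 against 10.3, 7.64 and 6.39 CPM for dendritic cells (*Zbtb46*; *Siglech*, *Cd209a* and *Clec9a* at 0), and at most 1.07 CPM for NK cells and 2.87 CPM for erythroid cells. *Xist* and Y-linked transcripts were present in all 6 libraries, *Xist* higher with 818, 1052 and 732 counts against 1240, 1364 and 1774 (0.86, edgeR adjusted p = 0.00391) and *Kdm5d* lower (-0.55, 0.0223). Of 5 sex-linked genes examined, edgeR called 1 higher and 1 lower, and 3 were not called. Estimates were below 0 for 4 of the 5, and 4 had an unadjusted edgeR p under 0.05. The part of sex-linked genes in the integrin result was not tested either.

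With 1 library left out in turn, edgeR called between 0 and 6 of the 10 integrin chains, and the share of all tested genes called varied as well. Without scrambled ASO replicates 1, 2 and 3 it called 0, 2 and 4 chains and 4.02, 8.22 and 22.5% of tested genes. Without *Pgam* ASO replicates 1, 2 and 3 it called 3, 0 and 6 chains and 5.60, 2.51 and 21.5% of tested genes. Over the same fits, the 38 called genes named here beside the integrins kept their direction, and those that passed the threshold numbered 13, 27 and 35 without scrambled ASO replicates 1, 2 and 3 and 19, 11 and 37 without *Pgam* ASO replicates 1, 2 and 3. Only *Cd9*, *Lgals3*, *Slc3a2*, *Ccr7*, *Tgif1*, *Tgfbr3*, *Foxp3*, *Cd28* and *Xist* were called in all 6 fits.

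**Figure D5:**
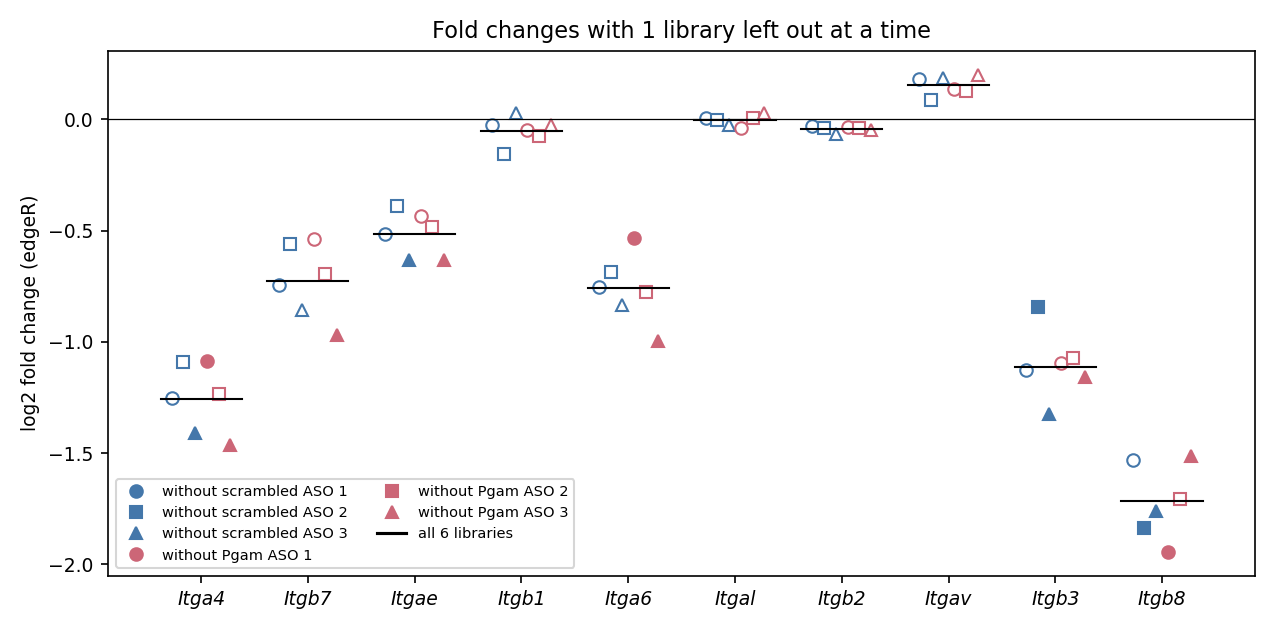
Log2 fold change (edgeR, vertical axis) of each integrin chain with 1 library left out at a time, by colour for the label and shape for the replicate left out; filled points have an adjusted p under 0.05, open points do not, and lines give the value from all 6 libraries. No point of *Itga4*, *Itgb7*, *Itgae*, *Itga6*, *Itgb3* or *Itgb8* reaches 0, and *Itgb1* and *Itgal* have points on either side of it.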

How the data were processed

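The unit is estimated counts deposited by the authors, listed by Ensembl gene and obtained with Kallisto, whose version and annotation are not given in the sources used here; the submitters' processing notes name GRCm38. Of 56748 genes, 52073 had a symbol, 52125 were in GENCODE M21 and 28236 were at 0 in every library. The values were already whole numbers, so rounding them left them as they were. Libraries were grouped by the labels.

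The tests used edgeR 4.0.16 under R 4.3.3 (filterByExpr, TMM, robust quasi-likelihood test, two-sided, Benjamini-Hochberg over all genes tested). Ratios between chains were compared by an exact permutation test. Alternatives were DESeq2 1.42.0, limma-voom (limma 3.58.1), other scalings and filters, stricter thresholds, a block for the replicate number, leaving out libraries in turn, and the longest transcript in place of merged exons. The same settings were applied to the other lists and genes after seeing the data, and the shares of all genes called by other tools or with a library left out were added then. The procedure was tested on simulated counts, in which genes varied independently and all had the same dispersion (spread beyond counting noise). The spread within a label along the first principal component was not simulated. Pairs of libraries within a label differed by 7.43 to 26.8 in chi-square per degree of freedom, so none was a duplicate. Promoter sequences are from RefSeq and shared 31-base stretches from GENCODE M21 transcripts.

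Named genes were taken from a rule, of which not every gene is printed: the 10 chains, the ASO targets, from each list the 4 called genes with the largest change and the 2 most abundant per length, and the 3 profiles nearest to *Itgae*, *Itgb7* and *Itgb8*. *Cd82*, *Cd226*, *Cd44*, *Smad7*, *Smad4*, *Nrros*, *Rara*, *Itga2*, *Ccr9*, *Gpr15*, *Mcpt8*, *Fcer1a*, *Cdh5*, *Xist*, *Kdm5d*, markers at 0 and genes overlapping a chain were named after their values were seen. The integrin chains and all lists were chosen with earlier results of these data known.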

Additional observations from a re-analysis of the deposited data

How the results depend on the processing

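*Itga4*, *Itgb3* and *Itgb8* were called in edgeR, DESeq2 and limma-voom and under every scaling and filter on low counts tried. In the main edgeR fit their log2 fold changes (-1.26, -1.11 and -1.71) missed an adjusted p of 0.01, where it called 0 of the 10 chains; in DESeq2 and in edgeR with no filter they were under it. DESeq2 called 5 chains, adding *Itgb7* (-0.72) and *Itga6* (-0.75), and so did edgeR with no filter (-0.71 and -0.75). The fit with no filter tested more genes than the main fit and called 3732 of them, against 2565 in the main fit. In limma-voom *Itga6* was past the threshold at -0.81. *Itgal* was at 0.0055 with no filter. The cause was not tested. Of all tested genes, 2565 were called, against 453 at an adjusted p under 0.01, 674 when the absolute log2 fold change also had to reach 1, and 391 to 3484 with 1 library left out.

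With 1 library left out, 0 to 6 chains were called and log2 fold changes ran from -1.46 to -1.09 for *Itga4*, -1.32 to -0.85 for *Itgb3*, -1.94 to -1.51 for *Itgb8*, -0.97 to -0.54 for *Itgb7*, -0.63 to -0.39 for *Itgae*, -0.99 to -0.53 for *Itga6*, -0.16 to 0.029 for *Itgb1* and -0.040 to 0.029 for *Itgal*. *Itgb2* ran from -0.068 to -0.029 and had -0.080 with library size alone. The log2 ratio of *Itgal* to *Itgb2* ran from -0.0069 to 0.078 with 1 library left out. Among the other genes, directions turned for *Bsg* (-0.13 to 0.21, and -0.016 with library size alone), *Furin* (-0.10 to 0.16), *Ccr4* (-0.20 to 0.022) and *Hba-a1* (-0.35 to 0.21), none of them called.

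Deviations from the group means correlated at 0.041, -0.028 and -0.21 between libraries of equal replicate number 1, 2 and 3. The highest correlation, 0.249, was between scrambled ASO replicate 2 and *Pgam* ASO replicate 3. Whether equal numbers share a source cannot be told from these values, since the 3 deviations of a label depend on each other and low values could hide a shared source. With the replicate block edgeR called 1235 genes and 3 integrin chains, *Itga4* (-1.27), *Itgb3* (-1.06) and *Itgb8* (-1.72). Of the 38 other called genes named, 22 were called with the block, without *Fyb*, *Rap1a*, *Dock2*, *Nedd9*, *Lgals1*, *S1pr1*, *Tgfbr2*, *Cd8a*, *Ighm*, *Pecam1*, *Cd82*, *Cd44*, *Nrros*, *Smad4*, *Smad7* and *Rara*. Calls were also lost for *Fyb*, *Rap1a*, *Nedd9* and *S1pr1* with library size alone, for *Fyb*, *Ighm* and *Pecam1* with no filter, and for *S1pr1* and *Smad4* in limma-voom. With lengths of the longest transcript, *Itga6* had 65.6 TPM in the scrambled ASO and 37.5 TPM in the *Pgam* ASO libraries in place of 41.5 and 23.8, above *Itgb3* at 47.5 and 21.1.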
